A study of Mus musculus with 9 samples.

Results

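The glucocorticoid receptor gene *Nr3c1* and 7 genes that the receptor is known to control were followed through livers of tetracycline-treated mice. The genes were *Fkbp5*, *Tsc22d3*, *Zbtb16*, *Sgk1*, *Errfi1*, *Ddit4* and *Cdkn1a*. They were chosen by symbol, and all 8 were found among the 32285 gene identifiers of the expression table. All 8 passed the minimum mean of 10 normalized counts that 12100 genes passed. In the control, Dox and Tc groups alike, the mice were of the Tet-OFF kind and carried PB CAG-CreERT2 with LSL-tTA and tetO-Venus-ires-mCherry, both inserted at Rosa26. In this design tamoxifen removes a stop cassette in front of tTA, an activator that tetracyclines switch off, and the CAG promoter drives CreERT2 throughout the body rather than in liver cells alone. All 3 groups received tamoxifen, the control group received no tetracycline, the Dox group received doxycycline and the Tc group received tetracycline, given in sweetened drinking water (2 mg/mL of either drug) for 7 days from 4 weeks of age. The study's supplement describes the treated mice as male. Whether control water held sucrose, and the hour at which livers were taken, are not given in the sources used here.

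Glucocorticoids from the adrenal gland enter hepatocytes, bind the receptor in its complex with HSP90 and FKBP proteins, and send it to the nucleus, where it binds DNA as a pair at inverted repeats of a short half-site. In liver the receptor is known for raising enzymes of gluconeogenesis and amino acid breakdown during fasting and stress. Its targets include genes that feed back on the receptor itself, such as *Fkbp5*, and genes that brake growth and inflammation. Several of these genes also answer to other inputs, among them p53 for *Cdkn1a* and ATF4 for *Ddit4*.

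Each group had 3 libraries. Reads on genes ranged from 8250804 to 10912338 in control libraries, from 7426136 to 10330238 in Dox libraries and from 10216627 to 12183041 in Tc libraries. Values below are normalized counts, that is reads per gene divided by a size factor of the library. The third library of every group could be approximated by adding up shares of libraries 1 and 2, fitted at 58.36% and 41.76% for control, 61.32% and 34.52% for Dox, and 61.24% and 36.87% for Tc. In the Dox group library 3 lay between the first and second library for 8 of 8 genes, against 5 of 8 in the control group and 6 of 8 in the Tc group. The fits over 9 libraries count each library as an independent sample, so their errors and p-values are too small if libraries 3 are mixtures, and the main comparisons are also given without libraries 3. The p-values measure only the spread between these libraries. Fewer cells of a type and less RNA per cell cannot be told apart in such bulk samples. The hepatocyte markers *Alb*, *Apoa1*, *Ttr*, *Fah* and *Cps1* were detected in every group, with sums from 1088000.7 to 1548719.1 normalized counts in control, 415845.4 to 776169.9 in Dox and 756366.8 to 1202136.1 in Tc libraries. *Alb* made up most of these sums. With Dox, *Alb* lay below all controls (log2 fold change -1.52, limma adjusted p = 0.208) and *Cps1* above them (0.69, limma adjusted p = 0.257). *Apoa1*, *Ttr* and *Fah* overlapped between Dox and control.

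For most of these genes the first and second Dox libraries stood far apart. *Ddit4*, *Cdkn1a*, *Zbtb16*, *Sgk1* and *Fkbp5* were 117.0, 69.9, 22.5, 11.6 and 10.1 times higher in Dox library 2 than in Dox library 1, and for each of the 5 genes library 1 lay below and library 2 above all 3 controls. The same 2 libraries differed over 10-fold for 3.91% of the 12100 genes and lay on those sides of the controls for 13.3% of them. With Tc the libraries lay closer together, and *Cdkn1a*, *Ddit4* and *Fkbp5* lay below every control while *Nr3c1* and *Errfi1* lay above. No member was called in any comparison by limma over all 9 libraries, where a call needed more than a 2-fold difference and p under 0.05 after Benjamini-Hochberg adjustment. Of all genes limma called 5.0% for Dox against control, 0.165% for Tc against control and 0.215% for Dox against Tc. DESeq2 over the same libraries called 2, 0 and 4 of the 8 members, beside 9.37%, 1.58% and 5.03% of all genes, and 0 members in each comparison without libraries 3. The plot of the 8 genes by library shows all 9 values of each.

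**Figure D1:**
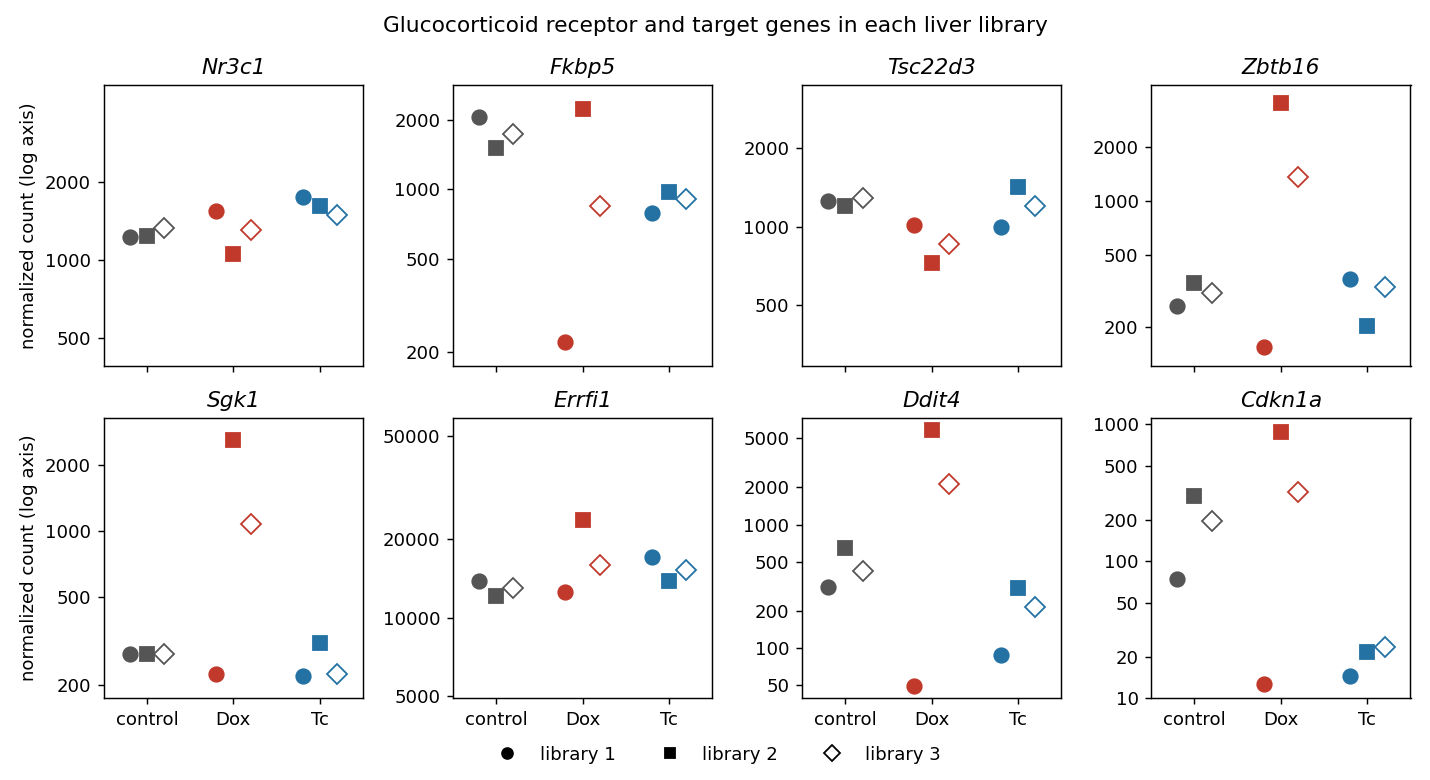
Normalized counts (log axis) of the 8 genes in each library of the control, Dox and Tc groups. Circles are libraries 1, squares are libraries 2 and open diamonds are libraries 3, which lie near mixtures of the others. For *Ddit4*, the Dox libraries span 49.5 to 5791.8 and the controls 311.2 to 641.4.

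The receptor itself was measured first. *Nr3c1* (ENSMUSG00000024431, chromosome 18, 39410545 to 39519421, minus strand, GRCm38) encodes the glucocorticoid receptor, a nuclear receptor. It had 1222.6, 1240.3 and 1322.2 normalized counts in the control libraries 1, 2 and 3. The Dox libraries had 1546.8, 1057.1 and 1301.2, and the Tc libraries 1749.9, 1616.9 and 1493.3. Dox libraries lay on both sides of the controls, and all Tc libraries lay above them. With Dox its log2 fold change was 0.03 (limma standard error 0.15, 95% interval -0.32 to 0.38, adjusted p = 0.919), and with Tc it was 0.36 (interval 0.01 to 0.71, adjusted p = 0.422). Dox against Tc gave -0.33 (interval -0.68 to 0.02, limma adjusted p = 0.251). Changes of the receptor transcript as large as 2-fold thus lay outside the intervals of all 3 comparisons over 9 libraries. Without libraries 3, the interval reached from -0.62 to 0.73 for Dox and from -0.22 to 1.12 for Tc.

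*Fkbp5* (ENSMUSG00000024222, chromosome 17, 28399094 to 28517527, minus strand) encodes FKBP51, a co-chaperone that lowers the affinity of the receptor for hormone and is itself raised by it. Its values were 2062.0, 1505.7 and 1741.8 normalized counts in the control libraries. They were 220.1, 2230.4 and 847.2 in the Dox libraries and 792.9, 970.3 and 909.6 in the Tc libraries. Dox library 1 held 12.4% of the control mean and Dox library 2 exceeded every control, while the Tc libraries lay together at 50.3% of the control mean and below each control. Against control, *Fkbp5* differed by -1.23 on the log2 scale with Dox (interval -2.77 to 0.30, limma adjusted p = 0.258) and -0.98 with Tc (interval -2.52 to 0.55, limma adjusted p = 0.639). *Fkbp5* was called against control by limma only without Dox library 2, with a log2 fold change of -2.02 and adjusted p = 0.0162, where 9.11% of all genes were called. Fitted without the Dox libraries, the Tc difference had an adjusted p of 0.00951 in limma and stayed just short of 2-fold. An antisense gene, AC154912.1, and a gene within an intron, AC154912.5, overlap *Fkbp5* and reached at most 75.2 and 17.7 normalized counts. The strand setting of the counting is not given in the sources used here.

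*Tsc22d3* (ENSMUSG00000031431, chromosome X, 140539528 to 140600659, minus strand) encodes GILZ, a leucine zipper protein that carries part of the anti-inflammatory action of glucocorticoids. The control libraries had 1250.1, 1205.0 and 1291.7 normalized counts. The Dox libraries had 1015.1, 723.5 and 857.8, and the Tc libraries had 998.0, 1418.1 and 1201.8. All Dox libraries lay below all controls, and Dox library 2, the highest for 6 of the 8 genes among the Dox libraries, was here the lowest. The log2 fold change with Dox was -0.54 (standard error 0.17, interval -0.93 to -0.16), with a limma adjusted p of 0.0806 over 9 libraries and 0.611 without libraries 3. The DESeq2 adjusted p was 0.0364 over 9 libraries, with a fold change under 2. With Tc the log2 fold change was -0.06 (interval -0.45 to 0.32, limma adjusted p = 0.931).

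One of the 3 RefSeq promoter windows of *Tsc22d3* holds a receptor half-site and is printed for that reason. A window runs from 250 bases before to 50 bases after an annotated start. The half-site searched was AGAACA on both strands, which 6233 of 32851 windows (19.0%) hold. The window at chrX:140600473-140600772 (GRCm38.p6, minus strand) is given 5′ to 3′ with the half-site in capitals, its first base at -185 from the start.
Tsc22d3: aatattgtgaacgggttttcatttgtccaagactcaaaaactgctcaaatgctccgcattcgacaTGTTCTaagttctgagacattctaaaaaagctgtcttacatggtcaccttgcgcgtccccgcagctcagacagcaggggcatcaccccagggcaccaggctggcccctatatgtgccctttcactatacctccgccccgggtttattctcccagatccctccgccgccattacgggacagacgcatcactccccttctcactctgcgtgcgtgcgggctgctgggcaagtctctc

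*Zbtb16* (ENSMUSG00000066687, chromosome 9, 48654297 to 48836222, minus strand) encodes PLZF, a zinc finger repressor of transcription. It had 261.5, 351.2 and 310.2 normalized counts in the control libraries. It had 154.8, 3478.5 and 1367.2 in the Dox libraries and 367.2, 203.2 and 334.4 in the Tc libraries. Dox library 2 held 11.3 times and Dox library 1 50.3% of the control mean, and the Tc libraries lay around the controls. The log2 fold change with Dox was 1.56 (standard error 0.93, interval -0.55 to 3.68, limma adjusted p = 0.295) and with Tc -0.06 (interval -2.18 to 2.05, limma adjusted p = 0.989). DESeq2 called it over 9 libraries (log2 fold change 2.44, adjusted p = 0.0110) and not without libraries 3 (2.57, adjusted p = 0.324).

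*Sgk1* (ENSMUSG00000019970, chromosome 10, 21882184 to 21999903, plus strand) encodes a kinase that acts on ion transport and cell survival downstream of both corticosteroid receptors. The control libraries were almost equal, at 276.3, 276.0 and 277.2 normalized counts. The Dox libraries had 223.2, 2584.7 and 1076.9, and the Tc libraries 219.7, 309.3 and 224.0. *Sgk1* was thus 9.35 times the control mean in Dox library 2 and 80.7% of it in Dox library 1, and the Tc libraries lay on both sides of the controls. Its log2 fold change with Dox was 1.62 (standard error 0.72, interval -0.01 to 3.26, limma adjusted p = 0.174). DESeq2 called it over 9 libraries (2.23, adjusted p = 0.00549) and not without libraries 3 (2.35, adjusted p = 0.274). With Tc the log2 fold change was -0.16 (interval -1.79 to 1.48, limma adjusted p = 0.962).

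Among the members, one of the 6 windows of *Sgk1* alone held the full receptor element, searched on both strands as the inverted repeat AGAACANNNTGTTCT of the half-site. This repeat was found in 3 of 32851 windows (0.00913%), and a looser form, GNACANNNTGTNC, in 156 windows (0.475%). The full repeat contains the half-site on each strand. The window at chr10:21993640-21993939 (GRCm38.p6, plus strand) is printed because of this element, with the repeat, whose first base lies at -189 from the start, and a further half-site in capitals.
Sgk1: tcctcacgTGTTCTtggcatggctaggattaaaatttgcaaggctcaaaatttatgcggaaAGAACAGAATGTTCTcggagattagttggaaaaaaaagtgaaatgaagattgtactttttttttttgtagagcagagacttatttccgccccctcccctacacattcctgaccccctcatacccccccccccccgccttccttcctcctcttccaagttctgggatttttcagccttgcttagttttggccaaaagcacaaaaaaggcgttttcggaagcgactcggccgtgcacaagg

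*Errfi1* (ENSMUSG00000028967, chromosome 4, 150853919 to 150868892, plus strand) encodes MIG6, a feedback inhibitor of the EGF receptor. Its values were 13794.7, 12101.7 and 13060.8 normalized counts in control, 12552.6, 23748.0 and 16021.7 in Dox and 17059.6, 13900.8 and 15328.3 in Tc libraries. Dox library 2 was the highest of the 9 libraries, Dox library 1 lay among the controls and all Tc libraries lay above them. Its differences on the log2 scale were 0.38 with Dox (interval -0.19 to 0.95, limma adjusted p = 0.344) and 0.25 with Tc (interval -0.32 to 0.82, limma adjusted p = 0.775). The antisense gene *1700045H11Rik*, which overlaps it, reached at most 1.8 normalized counts.

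*Ddit4* (ENSMUSG00000020108, chromosome 10, 59949669 to 59951834, minus strand) encodes REDD1, a stress-induced inhibitor of mTORC1, the kinase complex that promotes protein synthesis. The control libraries had 311.2, 641.4 and 419.6 normalized counts. The Dox libraries had 49.5, 5791.8 and 2130.0, and the Tc libraries had 87.9, 306.6 and 215.6. Dox library 2 held 12.7 times and Dox library 1 10.8% of the control mean, and all Tc libraries lay below the lowest control, the second of them narrowly. The log2 fold change was 0.96 with Dox (standard error 1.48, interval -2.41 to 4.33, limma adjusted p = 0.691) and -1.28 with Tc (interval -4.65 to 2.09, limma adjusted p = 0.810). The Dox value turned to -0.42 without Dox library 2 (limma adjusted p = 0.845) and was called without Dox library 1 (3.0, limma adjusted p = 0.0142).

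The single window of *Ddit4* is printed as that of the member with the widest spread among Dox libraries, at chr10:59951721-59952020 (GRCm38.p6, minus strand). It holds neither the half-site nor the repeat, so no letters are in capitals.
Ddit4: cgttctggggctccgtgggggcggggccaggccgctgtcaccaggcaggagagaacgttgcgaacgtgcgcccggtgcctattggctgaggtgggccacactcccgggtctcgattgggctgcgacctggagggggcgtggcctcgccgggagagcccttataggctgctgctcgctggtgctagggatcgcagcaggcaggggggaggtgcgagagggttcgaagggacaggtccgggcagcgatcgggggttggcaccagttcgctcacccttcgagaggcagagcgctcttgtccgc

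*Cdkn1a* (ENSMUSG00000023067, chromosome 17, 29090976 to 29100727, plus strand) encodes p21, an inhibitor of cyclin-dependent kinases that stops the cell cycle. It had 74.1, 299.9 and 195.8 normalized counts in the control libraries. It had 12.6, 883.4 and 319.4 in the Dox libraries and 14.6, 21.6 and 23.6 in the Tc libraries. All Tc libraries and Dox library 1, at as few as 12 reads, lay far below the controls, while Dox libraries 2 and 3 lay above them. Tc against control gave a log2 fold change of -3.00 (standard error 1.31, interval -5.98 to -0.02), with a limma adjusted p of 0.428 over 9 libraries and 1 without libraries 3. Fitted without the Dox libraries, the same difference was called (standard error 0.47, limma adjusted p = 0.0140), as were 2.28% of all genes. With Dox the log2 fold change was -0.07 (interval -3.05 to 2.92, limma adjusted p = 0.978). Its sign turned in 8 of 22 alternatives, with 1.09 in DESeq2 (adjusted p = 0.550).

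The windows searched numbered 15 for 6 of the 8 genes. *Fkbp5*, *Errfi1*, *Ddit4* and *Cdkn1a* held neither the half-site nor the repeat in their windows, while the half-site was in 4 of the 15 windows, 3 of *Sgk1* and 1 of *Tsc22d3*. Sequences are those of RefSeq. A match is a description of letters in a short window, and binding was not measured.

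Per kilobase of exon, *Errfi1* was the most abundant of the 8 genes in control livers, with a mean of 3625 normalized counts per kb. *Tsc22d3* followed with 288, *Ddit4* with 261, *Fkbp5* with 187 and *Nr3c1* with 164, and each of these overlapped its neighbour in the range over libraries. *Zbtb16* (58.2), *Sgk1* (56.4) and *Cdkn1a* (53.5) formed a lower set with overlapping ranges, and the highest *Zbtb16* library (66.5 per kb) lay below the lowest *Nr3c1* library (159 per kb). In the Dox group *Ddit4* came second with a mean level of 1514 per kb, within a range of 28.2 to 3300 per kb that spanned the means of 6 other members. In the Tc group *Cdkn1a* was lowest with 5.61 per kb, and its highest library (6.64 per kb) lay below the lowest library of *Zbtb16* (38.5 per kb) and of *Sgk1* (44.8 per kb).

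The first comparison asked how liver expression differed between Dox-treated and control mice. Over 9 libraries limma called 0 of 8 members, while 5.0% of the 12100 genes were called. At an unadjusted p under 0.05, 1 member, *Tsc22d3*, passed. The median log2 fold change of the members was 0.20, beside 0.00 over all genes tested, with 5 positive and 3 negative. The Dox and control groups did not overlap for 1 of 8 members, *Tsc22d3*, against 33.3% of all genes, and for the same count without libraries 3 against 39.7%. DESeq2 on the recovered reads called 2 members, *Sgk1* and *Zbtb16*, where it called 9.37% of all genes. edgeR called 0 members and 5.42% of all genes, with 3 members at an unadjusted p under 0.05. Without libraries 3, limma called 0 members and 0% of all genes, and DESeq2 0 members and 1.19%. At an unadjusted p under 0.05 there were then 0 members in limma and 2 in DESeq2.

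In limma, the members called depended on which Dox library was left out. DESeq2 was not fitted with 1 library left out. Without Dox library 1, limma called *Sgk1* (log2 fold change 2.59, adjusted p = 0.00543), *Zbtb16* (2.83, adjusted p = 0.00699) and *Ddit4*, in a fit that called 12.4% of all genes. Without Dox library 2 those 3 genes had values of 0.83, 0.59 and -0.42 and none was called by limma, and *Fkbp5* was called instead. Both fits still hold Dox library 3, which resembles a mixture of the others. The plot of fold changes by test and libraries shows how far each gene moved.

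**Figure D2:**
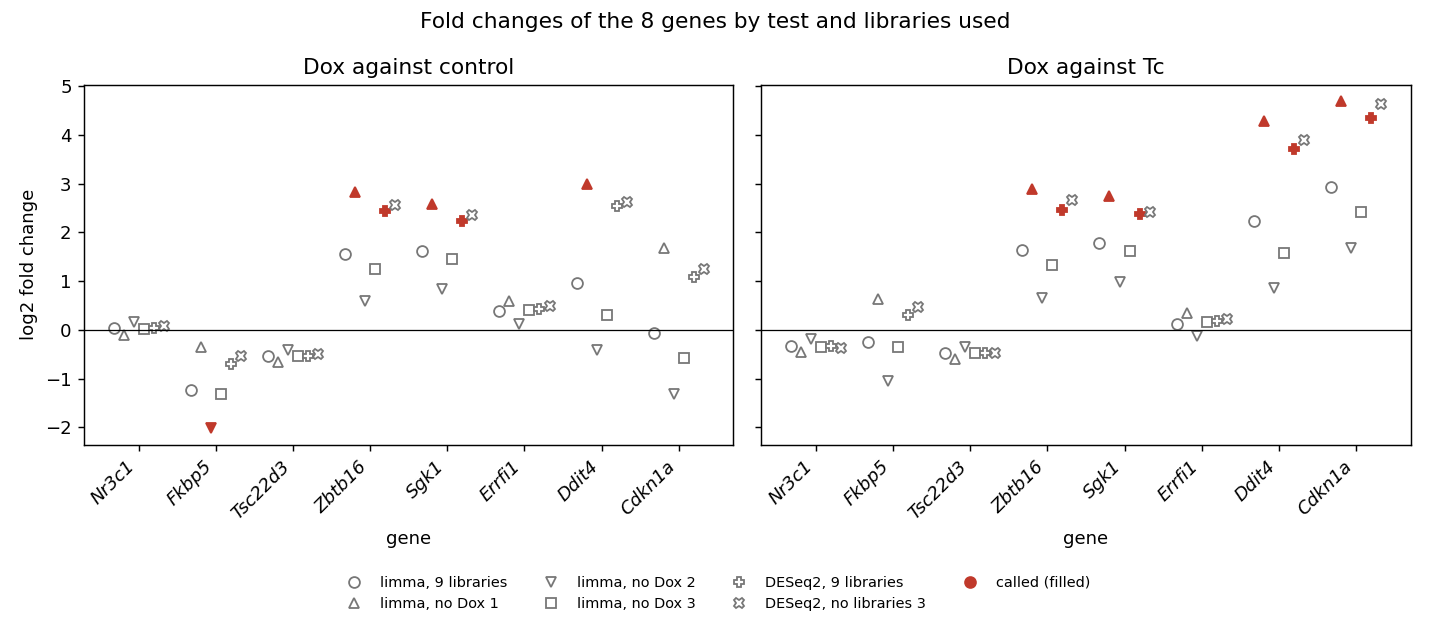
Log2 fold changes of the 8 genes for Dox against control and Dox against Tc, in limma with all 9 libraries, limma without 1 Dox library, and DESeq2 with and without libraries 3. Filled red symbols passed a fold change over 2 and an adjusted p under 0.05. *Nr3c1*, *Tsc22d3* and *Errfi1* stay within 2-fold in every setting shown, with *Tsc22d3* below 0 throughout, and for Dox against control *Ddit4* runs from -0.42 to 3.0.

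The second comparison asked the same of Tc-treated mice. Limma called 0 of 8 members over 9 libraries and 0.165% of all genes, with *Cdkn1a* and *Nr3c1* at an unadjusted p under 0.05. The groups did not overlap for 5 members, lower with Tc for *Fkbp5*, *Ddit4* and *Cdkn1a* and higher for *Nr3c1* and *Errfi1*, against 30.7% of all genes. Without libraries 3 the count was again 5, against 45.6%. DESeq2 called 0 members and 1.58% of all genes, with 2 members at an unadjusted p under 0.05, and edgeR called 0 members and 0.174%, with 1 such member. Without libraries 3, limma called 0 members and 0%, and DESeq2 0 members and 0.0744%. At an unadjusted p under 0.05 there were then 0 members in limma and 1 in DESeq2. The median log2 fold change of the members was -0.11, beside 0.00 over all genes.

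Dox and Tc were then compared at the same dose and duration. Doxycycline and tetracycline share the ring system of their class and differ in the place of a hydroxyl group. Over 9 libraries limma called 0 of 8 members and 0.215% of all genes, with *Sgk1* and *Tsc22d3* at an unadjusted p under 0.05, and the groups overlapped for all 8 members, against 24.6% of all genes that did not overlap. The log2 fold change of *Cdkn1a* was 2.93 (interval -0.05 to 5.92, limma adjusted p = 0.236), that of *Ddit4* 2.24 (interval -1.13 to 5.61, adjusted p = 0.375) and that of *Sgk1* 1.78 (interval 0.15 to 3.41, adjusted p = 0.207). For *Fkbp5* the difference was -0.25, with an interval from -1.78 to 1.28, so that differences of 2-fold in either direction stayed within it. The members' median was 0.88, beside -0.02 over all genes. Intervals for *Errfi1* (-0.44 to 0.70) and *Tsc22d3* (-0.86 to -0.09) were within 2-fold.

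DESeq2 called *Sgk1*, *Ddit4*, *Cdkn1a* and *Zbtb16* for Dox against Tc over 9 libraries, with adjusted p from 0.00607 for *Cdkn1a* to 0.0326 for *Ddit4*, where 5.03% of all genes were called. Limma without Dox library 1 called the same 4 genes, with log2 fold changes from 2.75 for *Sgk1* to 4.69 for *Cdkn1a*, and 11.3% of all genes. Each of the 4 was called in 2 of 22 alternatives. Their lowest log2 fold changes over the alternatives were 0.98 for *Sgk1*, 0.86 for *Ddit4*, 1.68 for *Cdkn1a* and 0.65 for *Zbtb16*. edgeR called 0 members and 0% of all genes, with 5 members at an unadjusted p under 0.05. Without libraries 3, limma called 0 members and 0% of all genes, and DESeq2 0 members and 0.264%. Members at an unadjusted p under 0.05 then numbered 0 in limma and 4 in DESeq2. The groups then did not overlap for 1 member, *Nr3c1*, against 32.1% of all genes. The 2 drug groups share no library, while the comparisons of each with control share the control libraries.

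**Figure D3:**
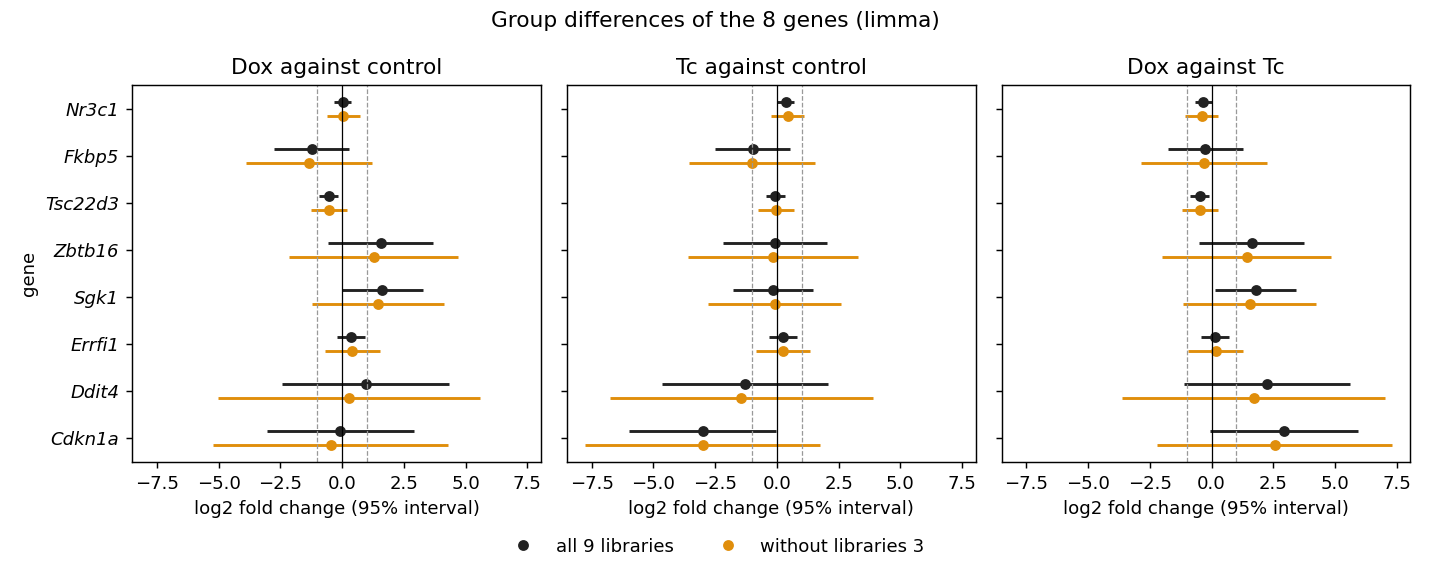
Log2 fold changes of the 8 genes with 95% intervals from limma, for Dox against control, Tc against control and Dox against Tc, over all 9 libraries (black) and without libraries 3 (orange). Dashed lines mark 2-fold. The intervals of *Ddit4* and *Cdkn1a* are the widest, from -2.41 to 4.33 for *Ddit4* with Dox over 9 libraries.

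Of 20 other hepatic genes known as receptor targets, limma called 3 as raised by Dox over 9 libraries and 0 as lowered, with a median log2 fold change of 0.40. Of all 12100 genes it called 5.0%, with 138 higher and 467 lower. DESeq2 over 9 libraries called 8 of the 20 as higher and 0 as lower, beside 9.37% of all genes, and 2 of the 20 without libraries 3. The 3 genes called by limma lay above all controls in every Dox library. *Bcl6*, a repressor of transcription, had 54.0, 75.2 and 64.8 normalized counts in control and 341.2, 498.1 and 371.3 in Dox libraries (log2 fold change 2.62, limma adjusted p = 0.0150). *Tdo2*, which opens the breakdown of tryptophan, rose from 5820.8, 6244.2 and 5890.3 to 16846.7, 23146.4 and 18362.0 (1.69, limma adjusted p = 0.00744). *G6pc*, the last enzyme of gluconeogenesis, rose from 3054.9, 3727.2 and 3585.3 to 7264.5, 6620.0 and 6889.6 (1.01, limma adjusted p = 0.0150). Without libraries 3 each of the 3 had a limma adjusted p of 0.559, and DESeq2 called *Bcl6* (adjusted p = 0.0185) and *Tdo2* (adjusted p = 0.000793). Leaving out 1 library ended the limma call of *Tdo2* only for control library 3 (adjusted p = 0.0504). Those of *Bcl6* and *G6pc* ended without control library 1, 2 or 3 or Dox library 3 (adjusted p up to 0.0719 and 0.0723), and *G6pc* also fell short of 2-fold without Dox library 1.

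Other targets were also spread between Dox libraries, though less widely than the members. Dox libraries 1 and 2 differed over 10-fold for 7 of the 20 (35.0%), beside 62.5% of the members and 3.91% of all genes. The genes in the next sentences were picked after their values were seen. *Igfbp1*, a binding protein of insulin-like growth factors, had 845.8, 356.5 and 653.5 normalized counts in control and 61.1, 82200.5 and 27852.2 in Dox libraries. *Pdk4*, which holds back glucose oxidation, had 36.0, 42.5 and 25.4 in control and 13.7, 1824.4 and 681.8 in Dox libraries. *Tat*, a tyrosine-degrading enzyme and a classical receptor target, had 21169.4, 11816.8 and 16131.2 in control and 13817.2, 159363.9 and 63626.8 in Dox libraries. The metallothionein *Mt1* had 4031.9, 3016.8 and 4140.9 in control and 74.8, 10046.7 and 3302.7 in Dox libraries. None of the 4 was called by limma over 9 libraries, with adjusted p of 0.386, 0.228, 0.178 and 0.550 in this order. For 11 of the 20 targets Dox library 1 lay below and Dox library 2 above all controls (55.0%), as for 5 of 8 members (62.5%) and 13.3% of all genes. These genes share the same 2 libraries, so the counts describe those libraries and no p is given.

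**Figure D4:**
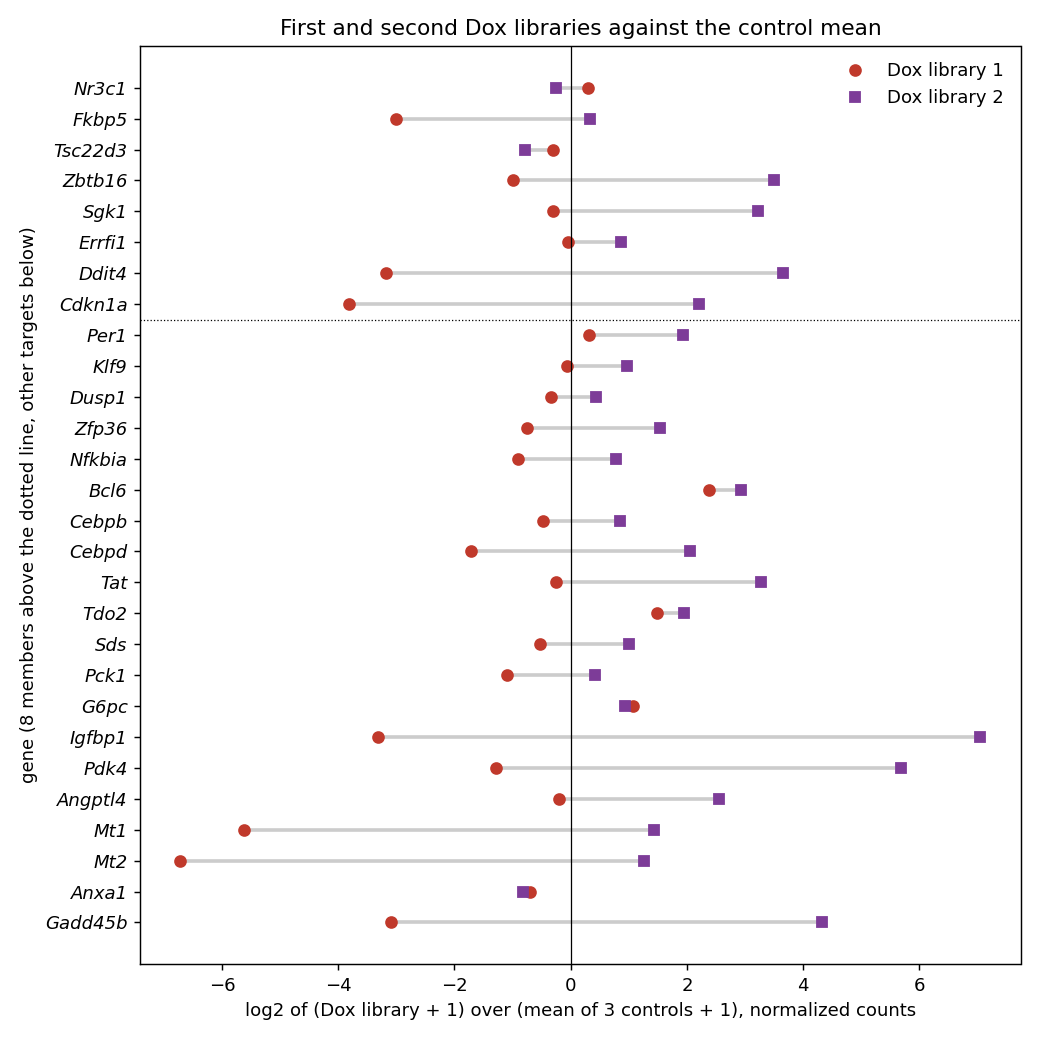
Dox library 1 (circles) and Dox library 2 (squares) on a log2 scale against the mean of the 3 control libraries, with 1 added to normalized counts, for the 8 members (above the dotted line) and 20 other hepatic targets. *Bcl6*, *Tdo2* and *G6pc* have both libraries on the right of 0, while *Igfbp1* spans -3.32 to 7.05.

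With Tc, limma called 0 of the 20 other targets, with a median log2 fold change of -0.14, and 5 lay below and 2 above all controls. Of all genes 30.7% did not overlap between these groups. *Gadd45b*, a stress-induced gene, had the largest difference among the 7. Its values were 50.8, 16.8 and 63.6 normalized counts in control and 5.9, 12.6 and 9.3 in Tc libraries (log2 fold change -1.99, limma adjusted p = 0.709). The metallothionein *Mt2* followed, with 2342.5, 2998.2 and 2961.0 in control and 788.0, 2217.6 and 1034.2 in Tc libraries (-1.17, limma adjusted p = 0.850).

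Genes that set the supply of hormone were measured in the same livers. Of 6 genes 5 passed the minimum level, and limma called 0 of them in each comparison. *Hsd11b1* and *Hsd11b2* were picked after their values were seen. *Hsd11b2*, the enzyme that inactivates the hormone in kidney, reached at most 1.3 normalized counts, and *Hsd11b1*, which reactivates it in liver, had 3482.5, 2357.7 and 3067.8 in control, 4191.9, 1642.6 and 3022.1 in Dox and 3797.6, 3381.2 and 3296.4 in Tc libraries. *Serpina6*, the corticosteroid-binding globulin of plasma, had 1521.1, 1346.5 and 1568.9 in control, 3049.4, 72.5 and 1784.2 in Dox and 4305.4, 5496.3 and 4124.3 in Tc libraries. Its log2 fold change was 1.64 with Tc (limma adjusted p = 0.647), and Dox library 2 lay far below the other 8 libraries. *Srd5a1*, a steroid 5α-reductase, likewise had 4.6 in Dox library 2 against 1373.1 in Dox library 1, with 297.4, 252.1 and 315.3 in control and 1010.7, 419.1 and 669.6 in Tc libraries. *Akr1d1*, which also clears steroids, was lower with Dox by a log2 fold change of -0.73, past the adjusted p (0.0328, limma) but not the fold threshold.

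Of 12 chaperones, co-regulators and related nuclear receptors, limma called 0 in each comparison. *Hsp90aa1*, the inducible HSP90 that holds the receptor ready for hormone, had 218.1, 260.1 and 209.8 normalized counts in control and 475.9, 388.8 and 366.9 in Dox libraries. Its log2 fold change was 0.83 with Dox (limma adjusted p = 0.0338), short of 2-fold, and 0.91 with Tc (adjusted p = 0.133). *Ptges3*, the p23 co-chaperone, was at 390.6, 383.1 and 378.9 in control and 639.2, 532.6 and 543.7 in Dox libraries (0.57, limma adjusted p = 0.0306). *Nr1i3*, the receptor CAR, had 741.0, 855.5 and 804.8 in control and 1470.6, 1485.6 and 1481.5 in Tc libraries (0.89, limma adjusted p = 0.201). Over the 37 tested genes of the hormone supply, chaperone and target lists, 3 were called with Dox, 0 with Tc and 0 for Dox against Tc by limma, beside 5.0%, 0.165% and 0.215% of all genes. DESeq2 called 8, 0 and 5 of the 37, beside 9.37%, 1.58% and 5.03% of all genes. The Dox count fell to 1 without control library 1, control library 2 or Dox library 3, to 0 without control library 3, and was 10 without Dox library 1.

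*Cdkn1a* also answers to p53 and *Ddit4* to ATF4, so lists of other p53 and ATF4 targets were read. Neither member is counted in these lists, and the ATF4 list includes *Atf4* itself. Of 9 tested p53 targets, limma called 0 in each comparison. DESeq2 over 9 libraries called 3 as higher with Dox, 0 with Tc and 2 as higher in Dox against Tc, beside 9.37%, 1.58% and 5.03% of all genes, and 0 in each comparison without libraries 3. The 3 were *Trp53inp1* (log2 fold change 2.66, DESeq2 adjusted p = 0.00111), *Btg2* (3.0, 0.0295) and *Sesn2* (1.89, 0.0245), and the first 2 were also called against Tc (2.35, 0.0103 and 3.39, 0.0231). *Mdm2* had 235.0, 263.6 and 213.6 normalized counts in control and 276.9, 310.6 and 273.6 in Dox libraries, and *Bax* had 119.6, 126.5 and 119.5 in control and 102.1, 96.6 and 90.6 in Dox libraries. Dox libraries 1 and 2 differed over 10-fold for 4 of the 9, *Trp53inp1*, *Btg2*, *Sesn2* and *Gdf15*, beside 5 of 8 members and 3.91% of all genes. *Trp53inp1* had 569.7, 6859.2 and 2727.3 with Dox and 613.9, 462.7 and 525.1 in control libraries. For *Btg2* the values were 60.0, 3362.3 and 1288.0 with Dox and 232.9, 146.9 and 211.0 in control libraries. *Btg2*, *Sesn2* and *Gdf15* lay below all controls in Dox library 1 and above them in Dox library 2, whereas *Trp53inp1* lay within the controls in library 1. *Mdm2*, *Bax* and these 4 genes were picked after their values were seen. Of 8 tested ATF4 targets, limma called 1, *Trib3*, for Dox against Tc. It had 176.9, 306.0 and 181.2 in Dox and 60.5, 66.5 and 75.8 in Tc libraries (log2 fold change 1.65, limma adjusted p = 0.0498, and 0.755 without libraries 3). DESeq2 called *Trib3* in this comparison with libraries 3 (1.71, adjusted p = 1.67e-06) and without them (1.92, adjusted p = 0.0271). It was no longer called by limma in 7 of 9 fits that left out 1 library, with adjusted p up to 0.274. Over 9 libraries DESeq2 also called *Trib3* as lower with Tc (-1.32, adjusted p = 0.000799), *Chac1* as lower in Dox than in control (-1.46, adjusted p = 0.0243) and than in Tc (-1.85, adjusted p = 0.00623), and *Sesn2*, which is on this list too, and none of these 4 calls was made without libraries 3. Of 11 tested clock genes, limma called 0 with Dox and for Dox against Tc and 1 with Tc, *Per2*, itself known as a receptor target. *Per2* had 188.4, 185.8 and 184.3 in control and 446.3, 471.2 and 484.3 in Tc libraries (1.32, limma adjusted p = 0.0316, and 1 without libraries 3). Its limma call was also lost in 7 of 9 fits without 1 library, with adjusted p up to 0.238. DESeq2 called *Per2* (1.33, adjusted p = 1.21e-09) and *Per3* (1.06, 0.0287) with Tc, *Per1* with Dox (1.27, 0.00522), and *Arntl* (4.13, 0.000466) and *Nr1d1* (1.23, 5.47e-05) for Dox against Tc, and 0 clock genes in each comparison without libraries 3. *Arntl*, the clock activator BMAL1, had 8.4, 349.7 and 117.9 in Dox, 8.8, 12.6 and 5.9 in Tc and 37.0, 62.8 and 59.8 in control libraries. Its log2 fold change with Tc was -2.44 (limma adjusted p = 0.441), and its part in the spread of the members was not tested.

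Other genes of these lists had groups that did not overlap without being called by limma. Among p53 targets, *Phlda3* differed by -1.31 on the log2 scale with Dox (adjusted p = 0.0909) and by -0.96 with Tc (0.441). *Zmat3* differed by -0.42 with Dox (0.132), and *Gdf15*, a stress-induced hormone, by -2.11 with Tc (0.564). Among ATF4 targets, *Atf4* itself differed by 0.84 with Dox (0.0747) and *Ddit3*, which encodes CHOP, by 0.83 (0.0829), while *Trib3* differed by -1.30 with Tc (0.0898) and *Asns*, the asparagine synthetase, by -0.82 (0.640). *Ddit3* had 2 identifiers under its symbol, of which only ENSMUSG00000025408 was used. The Dox libraries lay below the Tc libraries for *Chac1*, by -1.89 (0.110). Of the clock genes, *Per1*, also a receptor target, differed by 1.12 with Dox (0.0700) and *Per2* by 0.97 (0.0131, past the adjusted p but short of 2-fold). Dox exceeded Tc for the clock repressor *Nr1d1* by 1.21 (0.0705) and lay below it for *Per3* by -1.03 (0.133).

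In the comparison of Dox with Tc, the Dox libraries lay above the Tc libraries for *Bcl6* (log2 fold change 1.6, limma adjusted p = 0.129), *Tdo2* (0.82, adjusted p = 0.110) and *Ptges3* (0.33, adjusted p = 0.191). They lay below the Tc libraries for *Serpina6* (-2.64, limma adjusted p = 0.228), *Nr1i3* (-0.56, adjusted p = 0.212) and *H6pd*, which supplies cofactor to HSD11B1 (-0.17, adjusted p = 0.451).

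Markers of other cell types moved between the same libraries. The sum of 6 neutrophil markers was 5.3, 138.0 and 39.6 normalized counts in the Dox libraries, 42.3, 384.0 and 232.7 in control and 9.8, 113.3 and 34.5 in Tc libraries. The sum of 6 Kupffer cell markers was 2081.7, 4922.1 and 2890.1 in Dox, 7460.5 to 12397.2 in control and 3612.1 to 7398.2 in Tc libraries. Sinusoidal endothelial markers summed to 1888.0 to 2401.8 in Dox, 3696.2 to 3905.7 in control and 2959.8 to 3346.1 in Tc libraries. Lymphocyte markers lay at 23.0 to 26.3 in Dox, 36.0 to 66.4 in control and 26.1 to 37.8 in Tc libraries. Stellate cell markers lay at 3289.5 to 3705.1, 3732.4 to 3922.2 and 3805.1 to 4417.2, and cholangiocyte markers at 148.4 to 375.9, 199.9 to 243.5 and 255.8 to 335.4, in the same order. All 6 markers of each of these lists were detected in every group, except 1 cholangiocyte marker at 0 in all control libraries. With Dox over 9 libraries, limma called the Kupffer cell markers *Clec4f* (log2 fold change -1.85, adjusted p = 0.00958), *Adgre1* (-1.77, 0.0171) and *Csf1r* (-1.68, 0.0289) as lower. It also called the endothelial marker *Stab2* as lower (-1.22, 0.00468) and the cholangiocyte marker *Sox9* as higher (1.38, 0.0243). Of all genes it called 5.0%, and 0% without libraries 3. *Lyve1* and *Pecam1* overlapped between Dox and control. So did the other cholangiocyte markers tested, *Krt19* (0.95, limma adjusted p = 0.205) and *Spp1* (-0.33, 0.73). The cholangiocyte sum was 375.9 in Dox library 1, above all controls, and 148.4 in Dox library 2, below them. The part of these markers in the differences of the members was not tested.

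The genes most like each member over the 9 libraries were found by Pearson's r on log2(normalized count + 1), among 9379 genes with a mean of at least 50. *Sgk1* was closest to *Enc1* (r = 0.993), *2410131K14Rik* and *Abcc4*, and *Ddit4* to *Cerk* (0.992), *Icam1* and *Cd63*. *Zbtb16* was closest to *Trmt61a* (0.985), *Dync1li1* and *Ccdc9*, and *Cdkn1a* to *Il4ra* (0.980), *Dclre1b* and *Arntl*. *Fkbp5* was closest to *Gm14097* (0.986), *Slc43a1* and *Nnmt*, and *Tsc22d3* to the fibrinogen genes *Fga* (0.989) and *Fgg* and to *Serpina10*. *Nr3c1* was closest to *Tigar* (0.984), *Poli* and *2610507B11Rik*, and *Errfi1* to *Cox10* (0.976), *Pdcd11* and *Mettl13*. These values describe 9 libraries that are not independent. For *Sgk1* and *Zbtb16*, r was 0.947 over the 9 libraries and -0.09 over the 7 without Dox libraries 2 and 3. For *Ddit4* and *Cdkn1a* it was 0.917 and 0.843, and for *Fkbp5* and *Ddit4* 0.656 and 0.869. These 3 of the 28 pairs were picked after their values were seen.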

How the data were processed

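Liver RNA of the control, Dox and Tc groups (3 libraries each, single-end reads of 86 bp) was analysed, with groups taken from the labels. Per the methods and submitters' notes, the authors trimmed reads with cutadapt, aligned them to mm10 with STAR 2.7.11ac, counted them per gene with HTSeq 2.0.5 and normalized them with DESeq2 1.42.0. The deposited signal is a normalized count, reads per gene scaled by the size factor of each library. Symbols matched 32158 of 32285 identifiers, and coordinates are those of GRCm38, the same build.

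Log2(normalized count + 1) entered 1 limma (3.58.1, R 4.3.3) trend model of 9 libraries and the 12100 genes whose mean reached 10. Reads, recovered as whole numbers within 0.1 for all values, went into DESeq2 1.42.0 and edgeR 4.0.16. Scripts were tested on simulated data. Depth ranged from 7426136 to 12183041 reads on genes, and intervals cover the spread between libraries. Alternatives covered pseudocounts, filters, scaling, tools, groups fitted, a replicate block and each library left out.

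The members and lists were chosen with earlier results of these data known. Named genes were all members, called genes of the lists, the 2 non-overlapping genes per list with the largest difference (marker lists aside), and the 3 genes most like each member. Other names were chosen after their values were seen. Same-numbered Dox and Tc libraries, by the labels, deviated together (r = 0.287, 0.321 and 0.182), whereas pairs with control libraries gave r from -0.0807 to 0.055. RNA kits differ between the labels and the study's supplement.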

Additional observations from a re-analysis of the deposited data

How the results depend on the processing

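Of 528 member values under 22 alternatives, 18 turned in sign and 17 passed the thresholds.

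Members called for Dox against control numbered 2 with DESeq2 over 9 libraries, beside 9.37% of all genes. With 1 library left out they numbered 0 to 3, and the 3 came without Dox library 1, beside 12.4% of all genes. For Tc against control the count was 1 in a fit of those 2 groups. That fit called 2.28% of all genes, against 0.165% over 9 libraries. The count was 2 in that fit with a replicate block, and 0 with any 1 library left out. For Dox against Tc the count was 4 with DESeq2, beside 5.03% of all genes. With 1 library left out it was 0 to 4, and the 4 came without Dox library 1, beside 11.3% of all genes.

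Other pathway genes called with Dox against control numbered 8 with DESeq2, beside 9.37% of all genes, and 6 with no fold limit. They numbered 0 in limma without libraries 3, 0 in a 2-group fit with a replicate block and 0 to 10 with 1 library left out. The 10 came without Dox library 1, beside 12.4% of all genes. With Tc against control they numbered 1 in the 2-group fit, beside 2.28% of all genes. They numbered 3 in that fit with the block and 0 to 1 with 1 library left out. For Dox against Tc they numbered 5 with DESeq2, beside 5.03% of all genes, and 0 to 11 with 1 library left out. The 11 came without Dox library 1, beside 11.3% of all genes. Shares of all genes with no fold limit or in the 2-group fits with a block are not given here.

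With Dox against control, *Nr3c1* ranged from -0.10 to 0.17 with 1 library left out and *Ddit4* turned to -0.42 without Dox library 2. *Cdkn1a* turned to 0.08 with a pseudocount of 8, 0.11 with the same total per library, 1.09 in DESeq2 and edgeR, 1.26 in DESeq2 without libraries 3, 0.37 and 0.06 without control library 2 or 3, and from -1.32 to 1.69 with 1 library left out. With Tc against control, *Tsc22d3* ranged from -0.19 to 0.06 and *Zbtb16* from -0.23 to 0.20 with 1 library left out. For Dox against Tc, *Fkbp5* turned to 0.30 in DESeq2 and edgeR, and 0.47 in DESeq2 without libraries 3, and with 1 library left out it ranged from -1.04 to 0.63 and *Errfi1* from -0.12 to 0.34. The cause of these turns was not tested.

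A replicate block over 9 libraries left the member counts as they were. Under it, 0 members were called in each comparison, and of all genes 557, 2 and 2 were called for Dox against control, Tc against control and Dox against Tc, beside 605, 20 and 26 without it. In the fit of the control and Tc groups the block called *Ddit4* (adjusted p = 0.0232) and *Cdkn1a* (0.0118), although control numbers share no more than a number with Tc. The share of all genes called in that fit is not given here. Differences in *Cdkn1a* rest on as few as 12 reads in a library.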
